A study of Mus musculus with 48 samples.

Results

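Cytoplasmic ribosomal protein genes were examined for N6-methyladenosine (m6A) in the mouse hippocampus. Members were taken by name from the mm9 (NCBIM37) annotation, as protein-coding genes whose symbol begins with Rpl or Rps and a digit, together with Rplp0, Rplp1, Rplp2 and Rpsa and without the Rps6k kinases and -ps entries. The rule found 85 of 22380 protein-coding genes, of which 51 carry large-subunit and 34 small-subunit names. It also took in Rps19bp1, whose product binds Rps19 and is known as a regulator of the deacetylase SIRT1 rather than as part of the ribosome, and 8 paralogs outside the usual set (Rpl3l, Rpl7l1, Rpl10l, Rpl22l1, Rpl36al, Rpl39l, Rps4y2 and Rps27l). The remaining 76 are called core genes here.

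RNA came from the hippocampus of 24 male mice, either WT (HdhQ7/7) or Hdh+/Q111 knock-in mice (KI, HdhQ7/Q111), in which 1 copy of the endogenous huntingtin gene carries an expanded CAG repeat. KI mice model Huntington's disease with a single mutant allele in every cell type, so no effect can be assigned to one kind of cell. Mice were 5 or 8 months of age and were either naive or trained in the object location task, a test of spatial memory with a 10 min session and killing 30 min later, which gave 8 conditions of 3 animals. Each animal gave an m6A-immunoprecipitated (IP) library and an input library, 48 in all, and the authors called peaks of each IP against its own input.

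Ribosomal proteins are made in fixed proportion from abundant, stable mRNAs that are short, split into many small exons and begin with a terminal oligopyrimidine tract (5′TOP), through which mTOR signaling sets their translation. m6A is laid down by the METTL3-METTL14 complex at a DRACH sequence, of which GGAC is the commonest form. It gathers in long internal exons and around stop codons, and the exon junction complex is known to keep the methyltransferase away from the neighborhood of splice junctions. Genes for ribosomal proteins are also known for their many processed pseudogenes, intronless copies of the mRNA scattered over the genome.

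The deposited lists held 22601 to 57293 peaks per animal, with a median of 33826. Reads per library were not in the files, so the number of peaks was the only measure of yield, and m6A can be present where no peak was called. All markers listed for CA1 and CA3 pyramidal cells had an exonic peak in at least 1 animal. So did 4 of 5 each for dentate granule cells and interneurons, and all 5 each for astrocytes, oligodendrocytes, microglia and endothelium. Of the 8 choroid plexus markers 5 (62.5%) had one, against 58.5% of all protein-coding genes. These lists show only that the RNA was peaked, not how much of it was present. In such bulk tissue, fewer cells of a type and less RNA per cell cannot be told apart.

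Sequences at or near the summits (the highest point of a peak) are shown first. They cover the members with recurrent peaks on their own mRNA, because the results turn on these few sites. All are written 5′ to 3′ on the transcribed strand in NCBIM37 (mm9), with GGAC in capitals. The windows below were cut from the genome without splicing and can run past the end of an exon. The Rps19bp1 window lies on the minus strand at chr15:80091246-80091275 and that of Rpl7l1 on the minus strand at chr17:46911178-46911207. Both are in the 3′UTR, at the GGAC nearest to the summit. For Rps19bp1 this GGAC lay 17 nt from the summit, which falls just outside the window. The Rpl36 window lies on the plus strand at chr17:56753377-56753477, with the summit in the CDS, and is shown as the only core gene with its own mRNA called in as many as 10 animals.
Rps19bp1: gctgctatcccagGGACactggaacagagc
Rpl7l1: cccaggtctattaGGACcttgactacatgg
Rpl36: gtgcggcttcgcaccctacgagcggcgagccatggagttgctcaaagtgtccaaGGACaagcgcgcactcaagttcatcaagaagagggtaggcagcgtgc

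Rpl36al and Rps4y2 had summits in the CDS, and the nearest GGAC lay more than 50 nt from the summit. Both are close relatives of an intron-containing core gene, and 61 bases around each summit are shown above the matching stretch of that relative, with the differing bases in capitals. Rpl36al lies on the minus strand at chr12:70283951-70284011 and its relative Rpl36a on the plus strand at chrX:131121053-131121113. The upstream Rps4y2 summit lies on the plus strand at chr6:148303342-148303402, matched to Rps4x on the minus strand at chrX:99383252-99383312. The downstream Rps4y2 summit lies at chr6:148303944-148304004, matched to Rps4x at chrX:99380388-99380448.
Rpl36al: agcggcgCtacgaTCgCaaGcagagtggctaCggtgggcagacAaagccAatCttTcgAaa
Rpl36a: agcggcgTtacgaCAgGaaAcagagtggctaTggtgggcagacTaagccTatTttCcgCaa
Rps4y2 upstream: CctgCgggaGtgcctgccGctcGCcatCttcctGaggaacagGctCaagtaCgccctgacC
Rps4x upstream: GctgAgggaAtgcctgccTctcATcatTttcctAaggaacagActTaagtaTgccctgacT
Rps4y2 downstream: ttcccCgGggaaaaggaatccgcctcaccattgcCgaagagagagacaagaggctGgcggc
Rps4x downstream: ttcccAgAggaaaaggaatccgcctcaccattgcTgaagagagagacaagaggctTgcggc
The windows differed at 11, 12 and 4 of 61 bases, and neither relative had a GGAC within them.

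Most ribosomal protein genes carried no m6A peak in any animal. Of the 85 members, 62 (72.9%) had no peak anywhere on the gene body in any of the 24 animals, against 38.0% of all protein-coding genes. They comprise 36 large-subunit and 26 small-subunit genes. Among the large-subunit genes are Rpl3, which lies near the peptidyl transferase center, Rpl4, which lines the exit tunnel, Rpl5, a carrier of 5S rRNA, Rpl10, which is added late in subunit maturation, and the stalk proteins Rplp0, Rplp1 and Rplp2. Others without a peak were Rpl6, Rpl7, Rpl8, Rpl9, Rpl10a, Rpl12, Rpl13, Rpl14, Rpl15, Rpl19, Rpl21, Rpl23, Rpl27, Rpl27a, Rpl30, Rpl31, Rpl32, Rpl34, Rpl35, Rpl35a, Rpl37, Rpl37a, Rpl38 and Rpl39, and the paralogs Rpl3l, Rpl10l, Rpl22l1 and Rpl39l.

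On the small-subunit side the genes without a peak included Rpsa, the laminin receptor precursor, Rps27a, a ubiquitin fusion, and Rps19, the gene most often mutated in Diamond-Blackfan anemia. Others were Rps2, Rps3a, Rps4x, Rps7, Rps9, Rps10, Rps12, Rps13, Rps14, Rps15, Rps16, Rps20, Rps21, Rps23, Rps25, Rps26, Rps27, Rps27l and Rps29. Fau, which encodes a ubiquitin-like fusion of a ribosomal protein, and Gnb2l1, which encodes the ribosome-bound scaffold RACK1, fall outside the symbol rule and had no peak either.

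Exonic peaks were found in at least 1 animal for 21 members (24.7%, against 58.5% of all genes), in 12 or more animals for 10 (11.8%, against 45.4%), and in all 24 animals for 5 (5.88%, against 32.6%). A stricter count took only summits in an exon of the reference mRNA, which is the lowest-numbered protein-coding transcript of the gene, and in no exon of another coding gene. These are called own-mRNA summits. By this count 12 members (14.1%, against 54.7%) had a summit in any animal, and 4 (4.71%, against 40.7%) had one in 12 or more animals. The 4 were Rpl36al, Rps19bp1, Rpl7l1 and Rps4y2, and none of the 76 core genes reached 12 animals.

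**Figure D1:**
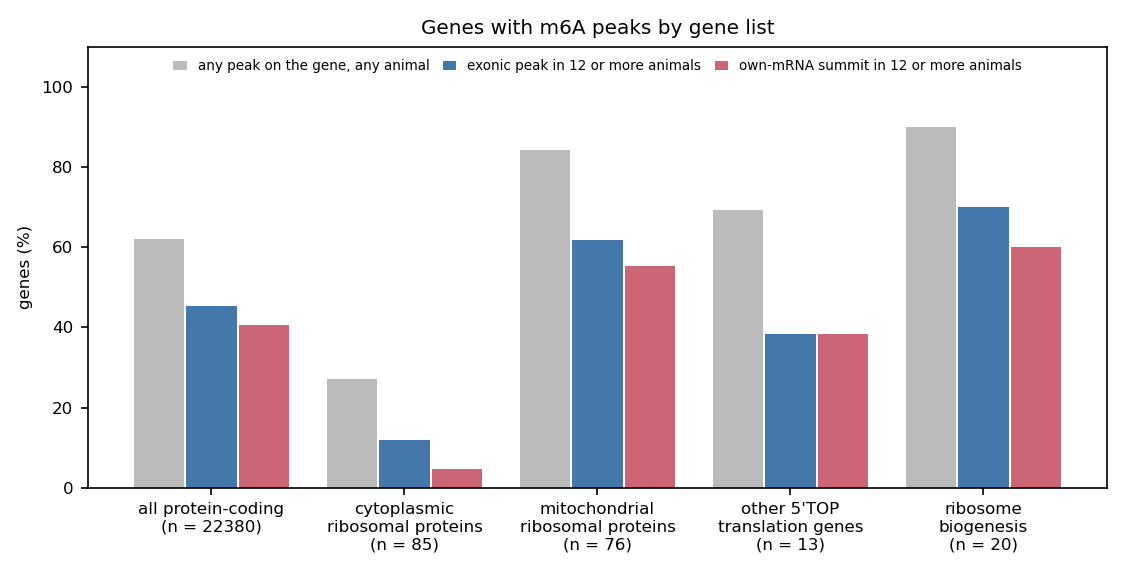
Share of genes (percent, vertical axis) with any peak on the gene in any animal (gray), with an exonic peak in 12 or more of 24 animals (blue) and with an own-mRNA summit in 12 or more (red), for all protein-coding genes, the cytoplasmic ribosomal protein genes and 3 other gene lists. The cytoplasmic ribosomal protein genes have the lowest bar of each kind, with 11.8% (blue) and 4.71% (red) against 45.4% and 40.7% of all genes.

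Other parts of the translation machinery had different shares, given as counts with no test. Of 76 mitochondrial ribosomal protein genes, which build the separate ribosome of the organelle, 12 (15.8%) had no peak and 42 (55.3%) had an own-mRNA summit in 12 or more animals. Of 20 ribosome biogenesis genes 12 (60.0%) did. Ncl (nucleolin), Mdn1, Nol6, Nolc1, Ubtf and the RNA polymerase I subunits Polr1a and Polr1b had exonic peaks in all 24 animals. These 7 made 35.0% of the list, against 32.6% of all genes. Bop1, Dkc1 and Rrp9 had exonic peaks in only 1, 3 and 4 animals, and 10.0% of the list had no peak.

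Among 13 other translation genes with a 5′TOP tract, 5 (38.5%) had an own-mRNA summit in 12 or more animals. Exonic peaks were called for the elongation factor subunit Eef1d in 24 animals, Tpt1 in 23, the poly(A)-binding protein Pabpc1 in 14, Eif4b in 13 and Eif3h in 13. Eef1a1 had them in 7, Eef1g in 4, Eif3f in 2 and Hnrnpa1 in 1, and 30.8% of the list had no peak. The share of cytoplasmic ribosomal protein genes with an own-mRNA summit in 12 or more animals was thus below those of these 3 lists. In all 24 animals the members and the 5′TOP list were closer, with exonic peaks in 5.88% and 7.69%. Own-mRNA summits in all 24 animals were found for 2 of 85 members and 0 of 13 5′TOP genes.

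Only part of the signal on the members lay on the ribosomal protein mRNA itself. Of 353 peaks on member bodies, out of 857395 in all, 132 (37.4%) had own-mRNA summits and 123 (34.8%) had summits in an exon of another transcript assigned to the gene. A further 46 (13.0%) had summits outside the gene, 26 (7.37%) in an exon shared with another gene, 21 (5.95%) in an intron, and 5 in an intron where another gene has an exon. The core genes held 242 of these peaks and 28 of the own-mRNA summits, while the paralogs and Rps19bp1 held 111 and 104.

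**Figure D2:**
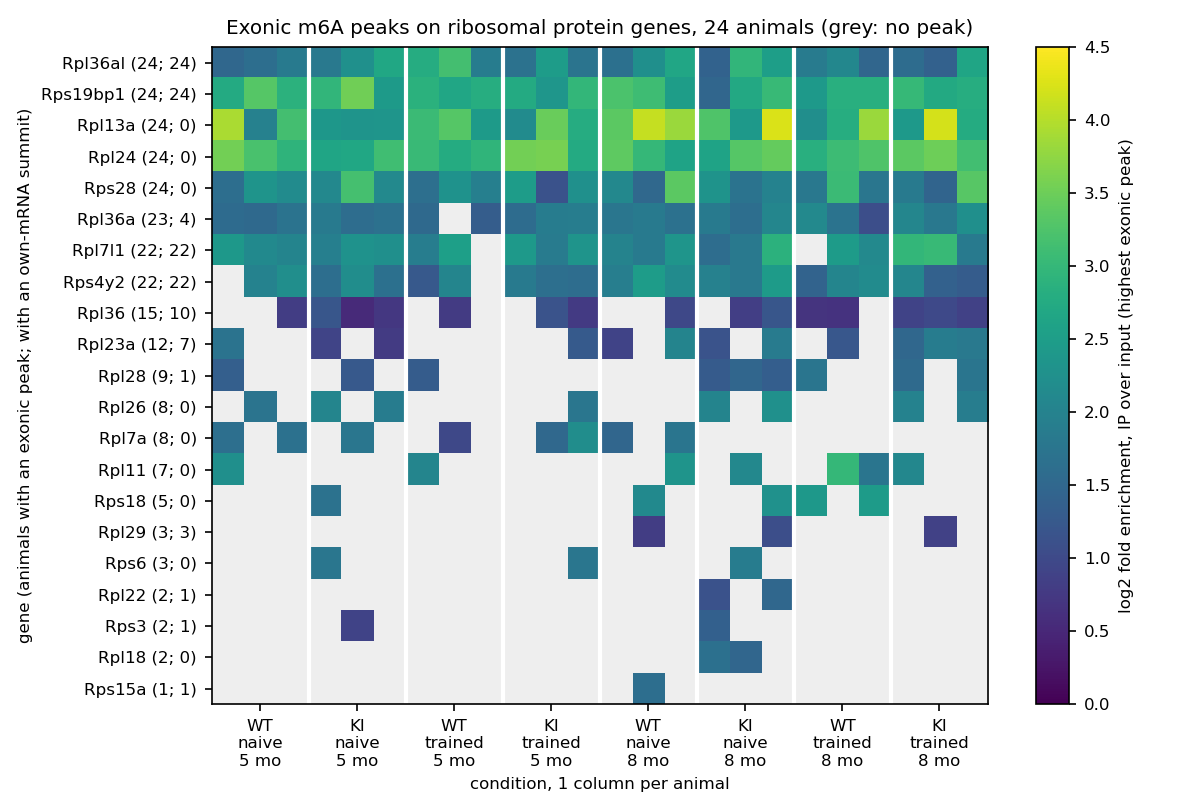
Highest exonic peak of each member in each animal, as log2 of the fold enrichment (color scale, gray where no peak was called), with 1 column per animal grouped by condition and 1 line per gene, whose label gives the number of animals with an exonic peak and with an own-mRNA summit. The Rpl36al line holds peaks of both of its regions, so that it reaches 8.94 on the linear scale. Rpl24, Rpl13a, Rps28, Rpl36al and Rps19bp1 were called in all 24 animals, and the genes from Rpl28 downward in 9 or fewer.

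Rpl24, Rpl13a and Rps28, which were called in all 24 animals, had their summits on exons that the authors' tables give to neighboring genes. The annotated Rpl24 gene extends through a long transcript, and its regions at chr16:55990290-55991161 and chr16:56006792-56007618, called in all 24 animals, bear the name of the zinc finger gene Zbtb11 in those tables. For Rpl13a the region was chr7:52386561-52386942, named Flt3l there, and for Rps28 chr17:33953965-33956996, named Kank3. Median fold enrichment was 4.83 and 8.39 in the Rpl24 regions, 7.69 in that of Rpl13a and 7.49 in that of Rps28. The peaks that touched the Rps28 gene itself had a lower median of 4.28. None of the 3 genes had an own-mRNA summit in any animal.

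Several further members likewise had no own-mRNA summit in any animal, though their summits lay in different kinds of places. Rps18, called in 5 animals, had its summit near the start of Vps52. Rpl18, called in 2, shared its exon with Sphk2, and Rpl7a, called in 8, had its summit on Med22. Rpl11 at chr4:135583793-135584482, called in 7 animals, and Rpl26 at chr11:68720095-68720444, called in 8, had theirs in distal exons of other transcripts, away from the ribosomal protein mRNA. Rps6, whose product is the phosphorylated target of S6 kinase, had an exonic peak in 3 animals and no own-mRNA summit. Rps24, called in 1 animal, and Rpl17, called in 2, had intronic summits alone.

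Rpl36al, a paralog of Rpl36a whose coding sequence is not interrupted by an intron, had an own-mRNA peak in every animal. The region chr12:70283769-70284271 lies on the CDS in exon 2 of 2 (425 nt), with the summit at position 273 of the 526 nt mRNA. The authors' comparisons give this region the name 1110034A24Rik as well as Rpl36al. Fold enrichment, the ratio of IP to input-based background at the summit, ran from 2.63 to 6.93 with a median of 3.42. This placed the peak at a median percentile of 22.0 among the peaks of the same animal, with values from 11.5 to 75.6 across animals. A second region at the upstream end of the gene, chr12:70284755-70287219, was called in all 24 animals with a median fold of 5.80 (3.43 to 8.94), but its peaks touched Rpl36al in 8 animals, and 7 of these had summits outside the gene, on Mgat2.

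In naive WT mice of 5 months the Rpl36al fold was 2.82, 3.08 and 3.62, and in trained ones 6.93, 2.95 and 3.72. Naive KI mice of 5 months had 3.54, 4.81 and 3.13, and trained ones 3.24, 5.01 and 3.34. These 4 conditions overlapped. At 8 months the values were 3.16, 4.70 and 3.50 in naive WT, 3.67, 4.23 and 2.799 in trained WT, 2.67, 3.06 and 3.63 in naive KI, and 3.02, 2.63 and 3.78 in trained KI mice, and these overlapped too. Across 12 against 12 animals the log2 fold differed by −0.09 between KI and WT (p = 0.53), 0.09 between trained and naive (p = 0.552) and −0.15 between 8 and 5 months (p = 0.306), in exact permutation tests (two-sided) within strata of the other factors. Leaving out 1 animal moved these differences to between −0.14 and −0.0042, 0.0034 and 0.13, and −0.19 and −0.07, where the values nearest to 0 came without replicate 1 of the trained WT mice of 5 months, which had the fold of 6.93.

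Rps19bp1 had the highest enrichment of the own-mRNA regions. The region chr15:80091060-80091974 was called in all 24 animals in the 3′UTR, with the summit 174 nt after the stop codon in a last exon of 517 nt. Fold enrichment ran from 2.78 to 11.5 with a median of 7.09, at a median percentile of 78.6 within the animal's list.

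The lowest Rps19bp1 value came from a naive KI mouse of 8 months (2.78, 6.57 and 8.14 in that condition), and the highest from a naive KI mouse of 5 months (7.82, 11.5 and 5.48). Naive WT mice had 6.70, 9.88 and 7.40 at 5 months and 9.30, 8.61 and 5.66 at 8 months. Trained WT mice had 7.29, 6.31 and 7.02 at 5 months and 5.37, 7.15 and 7.16 at 8 months, and trained KI mice 6.72, 5.12 and 7.89 and then 8.12, 6.64 and 6.95. The groups overlapped throughout. The log2 fold differed by −0.12 between KI and WT (p = 0.524), −0.07 between trained and naive (p = 0.699) and −0.13 between 8 and 5 months (p = 0.469, the same exact permutation test). Leaving out 1 animal moved them to between −0.19 and −0.0026, −0.19 and −0.0074, and −0.18 and −0.02. The values nearest to 0 for genotype and age came without the naive KI mouse of 8 months at 2.78, and for training without the naive KI mouse of 5 months at 11.5. Adjusted over these 6 tests of Rpl36al and Rps19bp1, p lay between 0.662 and 0.699.

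**Figure D3:**
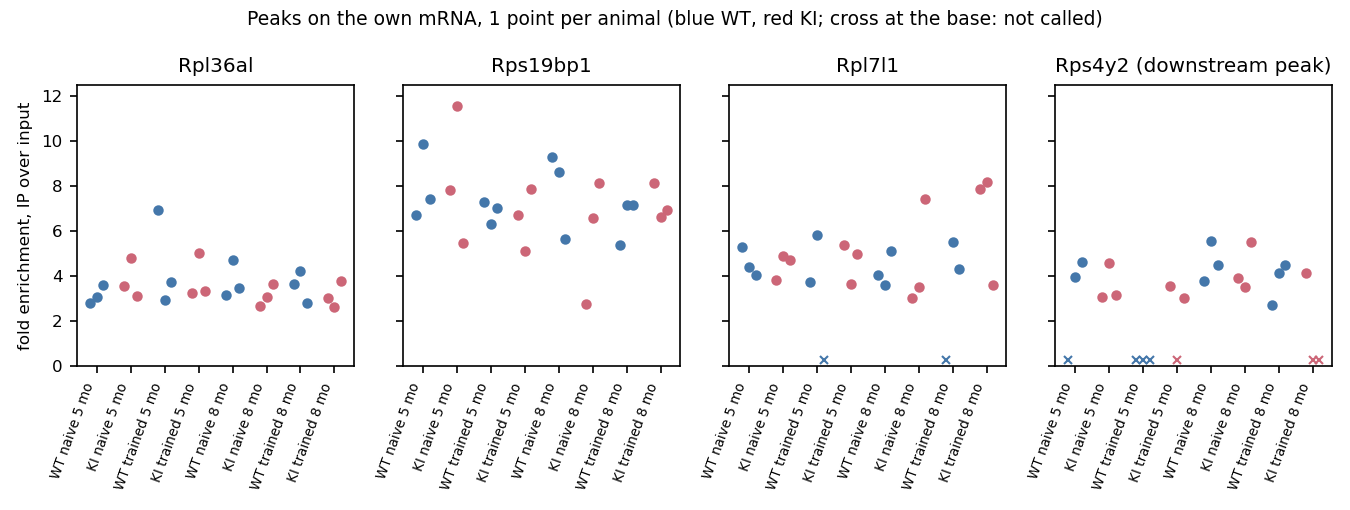
Fold enrichment of IP over input (vertical axis) in each animal by condition for the own-mRNA regions of Rpl36al, Rps19bp1, Rpl7l1 and the downstream region of Rps4y2, with WT in blue, KI in red and a cross at the base where no peak was called. Rps19bp1 lies highest, with a median of 7.09, the Rpl36al and Rps19bp1 conditions overlap, and the downstream Rps4y2 region has no point in trained WT mice of 5 months.

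Rpl7l1, whose product is related to the large-subunit protein Rpl7, was called in 22 animals at chr17:46910888-46911384. The summit lay in the 3′UTR, 1503 nt after the stop codon, in an exon of 1830 nt. Fold enrichment was 3.04 to 8.17 with a median of 4.56, and the 2 animals without the peak were a trained WT mouse of 5 months and a trained WT mouse of 8 months. A second region at chr17:46912347-46912609, nearer to the stop codon, was called in 4 animals.

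Rps4y2 is an intronless copy of Rps4x within an intron of Tmtc1, on a single exon of 943 nt, and was called in 22 animals. The upstream region, chr6:148303047-148303688, was called in 12 animals with a median fold of 2.88. The downstream region, chr6:148303755-148304093, was called in 17 with a median of 3.98 and a range of 2.71 to 5.58. Peaks have no strand in the deposited lists, so RNA from the copy and from the host intron cannot be told apart.

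Rpl36 and Rpl23a, the core genes with most own-mRNA summits, were weakly enriched. Rpl36a came next, with own-mRNA summits in 4 animals, and is described below with its higher fold. Rpl36 was called in 15 animals at chr17:56752982-56753570, in exon 3 of 4 (135 nt), with fold 1.45 to 2.31, a median of 1.79 and a median percentile of 0.954, near the bottom of the animal's list. Its summit fell in the own mRNA in 10 animals. For Rpl23a, at which the signal recognition particle docks near the exit tunnel, chr11:77996413-77997001 was called in 12 animals with a median fold of 2.62 (1.73 to 4.08), and 7 had an own-mRNA summit. The authors' comparisons give the Rpl23a region the name Snord42b as well as Rpl23a. Rpl29 at chr9:106333695-106333800 was called in 3 animals with a median fold of 1.83. Rps3, Rpl22, Rpl28 and Rps15a each had own-mRNA summits in 1 animal.

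Rpl36a and Rpl28 were peaked close to their starts. The Rpl36a region, chrX:131120235-131120659, was called in 23 animals, all 12 KI and 11 WT, with a median fold of 3.30 (2.12 to 4.70). Its summit lay 298 nt from the start, between exons 1 and 2 of the reference mRNA and in an exon of another transcript. For Rpl28, chr7:4744554-4744854 was called in 9 animals with a median fold of 2.56, 220 nt from the start, and lay between the same exons.

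Paralogs and their relatives were compared pair by pair. The coding sequences of Rpl36al and Rpl36a were identical at 87.7% of 318 nt, and own-mRNA summits were called in 24 and 4 animals. Exonic peaks were called in 24 and 23 animals, most of those of Rpl36a with summits in an exon of another transcript. Rps4y2 and Rps4x were identical at 81.2% of 778 nt, and summits were called in 22 and 0 animals. In both pairs the coding sequence of the first is in 1 piece, while that of Rpl36a is in 5 segments with a longest of 123 nt and that of Rps4x in 7 with a longest of 181 nt. At the matching positions of the printed windows, the summit position lay 33 nt from the nearest exon junction of Rpl36a, and 59 and 52 nt from the nearest junction of Rps4x.

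The other pairs did not follow the same order. Rpl7l1, with 22 animals, and Rpl7, with 0, both have 6 coding segments, and the Rpl7l1 summit lies in the 3′UTR. Rpl10l and Rpl39l also have coding sequence in 1 piece, yet neither they nor Rpl10 and Rpl39 had a peak, and both are best known from the testis. Rpl22l1 had none while Rpl22 had exonic peaks in 2 animals, and Rps27l with Rps27 and Rpl3l with Rpl3 had none.

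The members also have short exons, described here with no test. The longest coding segment, meaning coding sequence not interrupted by an intron, had a median of 170 nt over the members (72 to 786 nt) and 324 nt over all protein-coding genes. It was under 300 nt in 79 members (92.9%), against 46.8% of all genes. The reference mRNA had a median length of 780 nt, against 1127.5 nt for mitochondrial ribosomal protein genes. Among genes with the longest segment under 300 nt, 8 of 79 members (10.1%) had an exonic peak in 12 or more animals, against 37.5% of the other genes, and 2.53% against 30.7% had own-mRNA summits in 12 or more. The mitochondrial list had a median longest segment of 205.5 nt, under 300 nt in 82.9%.

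**Figure D4:**
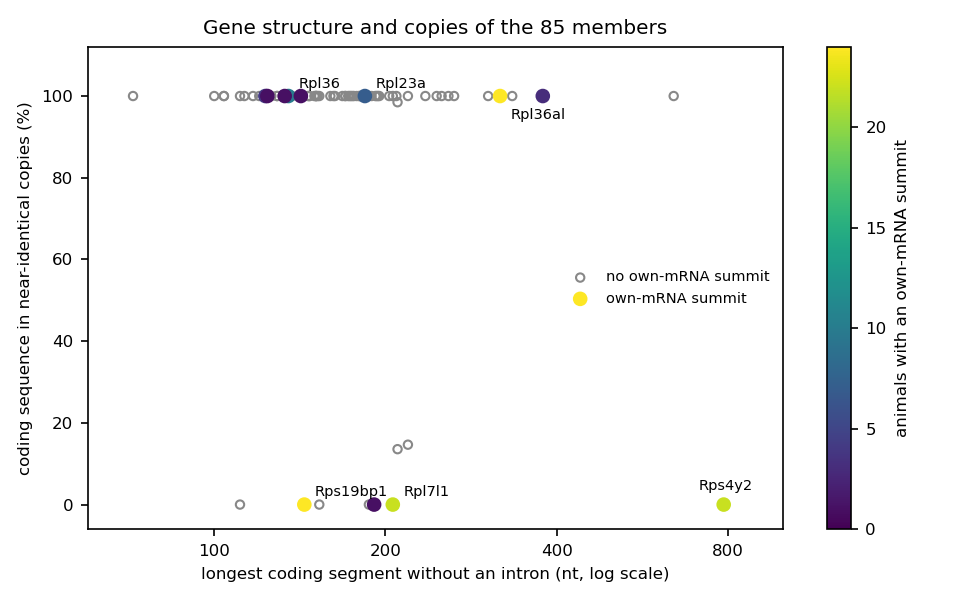
Longest coding segment of each member without an intron (nt, horizontal axis, log scale) against the percent of its coding sequence in near-identical copies elsewhere in the genome (vertical axis), with open circles for members without an own-mRNA summit and filled ones colored by the number of animals with one. Of the 4 genes called in 22 or more animals, Rps19bp1, Rpl7l1 and Rps4y2 lie at the bottom, without such copies, and Rpl36al at 100%, where most members lie.

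GGAC was present in nearly all of the mRNAs. Searched on the transcript strand alone (the letters GGAC), 81 of 85 members (95.3%) held at least 1 GGAC in the reference mRNA, against 97.1% of all genes, with a density of 3.47 against 4.23 per kb. The median number per mRNA was 3 against 9. GGAC at 100 nt or more from every exon junction was found in 37 members (43.5%), against 88.3% of all genes and 84.2% of mitochondrial ribosomal protein genes. Of the small-subunit genes 10 of 34 (29.4%) held one, and of the large-subunit genes 27 of 51 (52.9%). In the 5′TOP and biogenesis lists 76.9% and 80.0% of genes held one. Such shares of genes also depend on the number of GGAC per mRNA. Counted by site, 37.4% of the members' GGAC lay that far from a junction. The site share was 51.9% in all genes, 29.0% in 5′TOP genes and 27.1% in biogenesis genes. Rpl36al held 0 such sites, although its peak was called in all 24 animals.

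Exonic summits on the members had GGAC within 50 bp in 50.1% ± 10.8 (SD over 24 animals, 139 of 281 summits), against 47.2% ± 2.25 for exonic summits of all genes. The difference was smaller than the spread between animals, and it turned in a wider window, where the shares were 64.2% and 69.45%. For own-mRNA summits the share was 54.0% ± 17.2 (71 of 132), and in the wider window 75.8% ± 18.9, so for these it did not turn. The values for all genes count only summits in exons of a single coding gene, a limit not set for the member summits. Of summits within the members, 92.1% ± 6.89 (281 of 307) lay in exons, against 70.7% ± 4.61 for all genes. Those 281 were 132 own-mRNA summits, 123 in an exon of another transcript and 26 in an exon shared with another gene. Annotated small nucleolar RNAs, many of which are encoded in introns of ribosomal protein genes, held 0 of the 307 summits.

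The deposited peaks rest on reads that mapped to a single place, so near-identical copies were counted. In the genome, 76 of 85 members had at least 50% of their coding sequence in other loci at 95% identity or more over 100 bp or more, with a median of 100% of the coding sequence and 6 loci. Mitochondrial ribosomal protein genes had 17 of 76, the 5′TOP genes 9 of 13 and biogenesis genes 3 of 20. Among the 76 members with such copies, 57 had no peak, 8 had an own-mRNA summit in any animal and 1, Rpl36al, in 12 or more. Among the 9 without, which include Rpl7l1, Rps3, Rps4y2 and Rps19bp1, 5 had no peak, 4 had an own-mRNA summit in any animal and 3 in 12 or more. The part of unique mapping in the absence of peaks was not tested, and low enrichment and low mappability cannot be told apart from these files.

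The number of members with an exonic peak varied with genotype, training and age. Per animal it ran from 6 to 15 with a median of 11. At 5 months it was 11, 9 and 10 in naive WT, 13, 12 and 11 in naive KI, 10, 9 and 6 in trained WT and 8, 10 and 13 in trained KI mice. At 8 months it was 10, 11 and 12 in naive WT, 14, 13 and 15 in naive KI, 10, 11 and 10 in trained WT and 13, 11 and 12 in trained KI mice. Naive KI mice of 8 months lay above all naive WT mice of that age.

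KI mice had 12.1 ± 1.88 such members (SD, n = 12) and WT mice 9.92 ± 1.51, a difference of 2.17 (p = 0.0013, adjusted over 6 tests 0.0078, two-sided exact permutation test within strata of the other factors). Mice of 8 months had 11.8 ± 1.64 and of 5 months 10.2 ± 2.04, a difference of 1.67 (p = 0.0087, adjusted 0.026, same exact test). Trained mice had 10.25 ± 2.01 and naive mice 11.75 ± 1.76, a difference of −1.50 (p = 0.0179, adjusted 0.0358, same exact test). Training lost its call when any of 4 animals was left out, with p up to 0.0724. These were a trained WT mouse of 5 months (replicate 3) and each of the 3 naive KI mice of 8 months, and the difference without them ran from −1.11 to −1.39.

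The number of peaks in the whole list moved the same way. KI mice had 38715 ± 8073 peaks against 32735 ± 5973 in WT (p = 0.028), mice of 8 months 38869 ± 8513 against 32580 ± 5129 (p = 0.0177), and trained mice 33238 ± 5822 against 38211 ± 8542 (p = 0.0641, exact permutation tests with n = 12 each). As a percent of an animal's peaks, those on the members were 0.0428 in KI and 0.0401 in WT (p = 0.331), 0.0413 in trained and 0.0417 in naive (p = 0.89), and 0.0415 at 8 and 0.0414 at 5 months (p = 0.972, exact permutation tests). With the same number of best peaks in every animal, KI mice had 7.17 members and WT 7.75 (p = 0.478, exact permutation test), and the difference by age was also reversed. The differences in number were therefore not seen at an equal number of peaks.

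**Figure D5:**
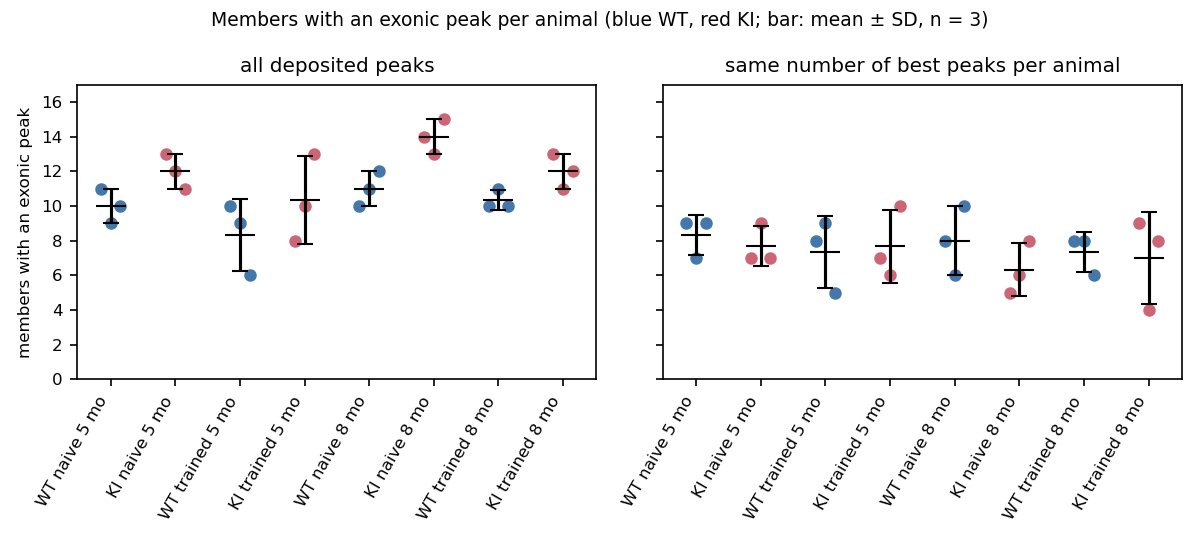
Number of members with an exonic peak (vertical axis) in each animal by condition, with WT in blue, KI in red and a bar for the mean ± SD of 3 animals, for all deposited peaks (left) and for the same number of best peaks, 22601, in every animal (right). On the left naive KI mice of 8 months lie at 14, 13 and 15, and on the right the means were 7.17 for all KI and 7.75 for all WT mice.

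No region on a member passed the threshold for genotype, training or age after adjustment. Of the 34 regions on members, 15 were called in 3 to 21 animals and so were tested by Fisher's exact test among 35110 regions. None had an adjusted p below 0.05 for genotype (background 0.00285%), training (0%) or age (0%), and the smallest adjusted p was 0.62, for age. At an unadjusted p below 0.05 there was 1 for genotype (background 1.79%), 0 for training (1.44%) and 0 for age (9.8%).

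The 1 region was Rpl26, in the distal exon named above, called in 7 of 12 KI and 1 of 12 WT mice (unadjusted p = 0.0272, adjusted p = 1, Fisher's exact test). The KI animals were 2 naive and 1 trained at 5 months and 2 naive and 2 trained at 8 months, and the WT animal was naive at 5 months. Rpl36 had 10 KI and 5 WT animals (p = 0.0894), the Rps6 region 4 and 0 (p = 0.0932), and the downstream Rps4y2 region 6 trained and 11 naive animals (p = 0.0686), all by the exact test without adjustment. With 1 animal left out, the number at an unadjusted p below 0.05 ran from 1 to 3 for genotype, 0 to 1 for training and 0 to 1 for age. Rpl26 was among them without any 1 of the 24 animals. Rpl36 joined without any of 7 animals (the 2 KI mice without its peak and the 5 WT mice with it), and Rps6 without any of the 8 KI mice in which it was not called. The downstream Rps4y2 region joined for training without any of the 6 trained mice with its peak or the 1 naive mouse without it, and Rps18 for age without replicate 1 of the naive KI mice of 5 months.

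Comparing conditions of 3 animals, a few regions were called in 3 of 3 animals of one and 0 of 3 of the other. With 3 against 3 the smallest p an exact test can give is 0.1, so these are counts. At 8 months Rpl28 was called in the 3 naive KI mice, at fold 2.44, 2.81 and 2.55, and in none of the naive WT mice, which made 1 of 32 regions (background 1.19%). Rpl7a, whose region chr2:26765890-26766586 lies mostly on Med22, was called in the 3 naive and no trained WT mice of 8 months, 1 of 24 (background 0.736%). The Rpl24 region chr16:55991428-55991604, named Zbtb11 in the tables, was called in all 3 naive KI mice of 8 months and in no trained ones (1 of 30, background 1.55%) and in no naive KI mice of 5 months (1 of 31, background 2.36%). These 2 comparisons share the naive KI mice of 8 months.

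Rps4y2 gave the remaining case. Its downstream region was called in the 3 trained WT mice of 8 months, at fold 2.71, 4.14 and 4.48, and in no trained WT mouse of 5 months (1 of 20, background 2.52%). In naive WT mice it was called in 2 of 3 at 5 months and 3 of 3 at 8 months. The other 7 of 12 comparisons had 0 such regions on members, and shares this small differ from the background by a single region.

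The authors' tables of compared peaks held some members. Each table lists 4227 to 8083 peaks, and 7 of 10 held any member symbol, with 1 or 2 each. Peaks on members were also rare in the animals' own lists, with a median share of 0.0411%. These counts are therefore not read as a result about the members. Rpl36al was listed in the 3 comparisons of naive with trained mice of 8 months, in both genotypes together and in WT and KI alone, at an authors' mean log2 level over both groups of 11.09, 11.14 and 11.09. Rpl7l1 was listed for KI against WT naive mice and for naive against trained WT mice of 5 months, at 8.98 and 8.95. Rps19bp1 was listed for naive against trained KI mice of 5 months, at 11.36, and Rpl23a for trained KI against WT mice of 8 months, at 5.45, the lowest of these levels. Rps4x was listed 3 times, at 10.02 to 10.39, and each of these peaks lies on chromosome 6 at the Rps4y2 copy and not on the Rps4x gene on the X chromosome.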

How the data were processed

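Hippocampal IP and input libraries of 24 mice (48 in all, no animal in more than 1 condition) were grouped by their labels, and inputs had no files used here. Per the study's methods and the labels, the authors aligned reads with STAR 2.7.3a to mm9, kept unique reads, removed repeats and called peaks with MACS2 2.2.6. Each deposited peak list gives the fold enrichment (a ratio), a score, and p- and q-values as −log10. The deposited tables, made with DiffBind 2.8.0, give log2 levels, fold changes and p-values of the authors' comparisons. Of these only the mean log2 level was used. All 10 headers name the same pair of groups, so group means were not assigned. Reads per library are not in the files, and the methods give them only as an approximate figure for all libraries, so the number of peaks stood in for yield.

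Peaks were placed on genes by 1 bp or more of overlap (bedtools 2.31.1), and peaks of all animals that overlapped were merged into 81807 regions. Sequences were read with samtools 1.23.1 and copies found with blastn 2.17.0. Numbers per animal were compared by two-sided exact permutation within strata (160000 arrangements) and regions by Fisher's exact test with Benjamini-Hochberg adjustment over 35110 regions, with a threshold of 0.05 (Python 3.11.15, scipy 1.17.1). The statistics were tested on simulated data. Named with values were members with an exonic peak in all animals or among the 10 with the most, regions with unadjusted p below 0.05 or called in 3 of 3 against 0 of 3, members in the authors' tables, members without a peak and the paralogs. Other members were named after their values were seen, and some members are counted but not reported by name here. The members and gene lists were chosen with earlier results of these data known. Alternatives were a −log10 q of 5 or more, the same number of best peaks, summit in place of overlap, permutation without strata, each animal left out, and, chosen after seeing the data, own-mRNA summits, leaving out Rps19bp1 and percentiles of fold. Each replicate is a separate animal.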

Additional observations from a re-analysis of the deposited data

How the results depend on the processing

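The number of members with an exonic peak depended on which peaks were used. At a −log10 q of 5 or more the difference was 1.0 for KI minus WT, −0.833 for trained minus naive and 0.50 for 8 minus 5 months, none past the threshold (exact permutation p from 0.368 to 0.684). At an equal number of best peaks it was −0.583 for genotype and −0.583 for age, both reversed, and −0.25 for training, and the percent of peaks on members by age was reversed at −0.0007. Training was −1.50 without strata, no longer past the threshold (p = 0.0815, permutation test). Counting own-mRNA summits, a setting chosen after seeing the data, the difference was 1.33 for genotype (p = 0.0129, exact permutation test), while −0.50 for training (p = 0.367) and 0.833 for age (p = 0.12) no longer passed in the same exact test. Leaving out each animal in turn gave −1.75 to −1.11 for training, 1.81 to 2.54 for genotype and 1.29 to 1.92 for age, and for the percent of peaks −0.0015 to 0.0008 for training, −0.0011 to 0.0012 for age and 0.0017 to 0.0039 for genotype. Regions called in 3 of 3 against 0 of 3 animals, which were 1, 2 and 2 for genotype, training and age, became 0, 1 and 2 at an equal number of best peaks and 0, 0 and 1 where a peak had to cover 50% of the region. The share of summits with GGAC was 32.1% within a narrower window of 51 bp (28.2% for all genes) and 64.2% within a wider one (69.45% for all genes). For own-mRNA summits it was 32.6% and 75.8%. The cause of these changes was not tested. No member region passed the adjusted threshold under any alternative run, and Rpl26 lost its unadjusted call at a −log10 q of 5 or more, with equal numbers of best peaks and with 50% cover. No paired analysis was possible because no animal is in more than 1 condition.

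Peaks on the members were few per animal, fold enrichment exists only where a peak was called, and reads per library were not in the files, so an absent peak gives no bound on m6A.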

Other observations

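The annotation also holds 163 entries with an Rpl or Rps symbol and -ps, processed copies of ribosomal protein mRNAs. Of these, 11 had a peak in any animal, against 13874 of 22380 protein-coding genes with a peak on the gene body. Any overlap of 1 bp or more was counted, so peaks of host or neighboring genes can be included. The peaks rest on reads that mapped to a single place, and the effect of this on such copies was not tested.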
